A study of Mus musculus with 9 samples.

Results

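The genes examined here encode the nuclear subunits of oxidative phosphorylation and closely named factors, and they were measured in mature mouse eggs. They were taken from the deposited tables as the protein-coding genes whose symbols begin with Nduf, Cox4 to Cox8, Atp5 or Uqcr, or are Sdha, Sdhb, Sdhc or Sdhd. This gave 91 of 30153 genes, among 18483 protein-coding ones. By complex there were 44 genes for complex I, 4 for complex II, 8 for complex III, 18 for complex IV and 17 for complex V. Ndufa4 and Ndufa4l2 were placed with complex IV, where the Ndufa4 protein resides.

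Poly-A RNA was sequenced from pooled metaphase II oocytes, which are arrested at the second meiotic division, in GFP High, GFP Low and RFP groups with 3 libraries each. All groups came from 4-week-old Sycp3CreERT2/+; Rosa26nT-nG/+ females of mixed genetic background. Sycp3 is a meiotic gene, CreERT2 is a Cre recombinase that acts after tamoxifen, and the nT-nG reporter switches from a nuclear red to a nuclear green protein once Cre has recombined it. When and whether tamoxifen was given to each pool is not stated in the labels. The females received 5 IU of PMSG and, after 48 h, 5 IU of hCG, and eggs were taken 13 h later, stripped of cumulus cells with hyaluronidase at 0.3 mg/ml and picked by hand for their GFP signal. A GFP High library was made from 15 or 16 oocytes, a GFP Low library from 49 to 57 and an RFP library from 87 to 100, so the GFP High libraries rest on the fewest cells. Nothing in the labels says whether the pools came from separate animals, and the p-values measure only the spread between these samples. In such pools, fewer cells of a type and less RNA per cell cannot be told apart.

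Oxidative phosphorylation makes most of the ATP of an egg. Electrons enter the inner mitochondrial membrane at complex I (NADH dehydrogenase) or complex II (succinate dehydrogenase), pass through ubiquinone, complex III and cytochrome c to complex IV (cytochrome c oxidase), and the proton gradient so formed drives complex V (ATP synthase). The mature oocyte carries an unusually large store of mitochondria and of maternal transcripts, and it makes little or no new RNA until after fertilisation. Each complex apart from complex II joins nuclear-encoded subunits to a few encoded in the mitochondrial genome.

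Library totals lay between 19381677 and 27746256 counts, so that 1 CPM (counts scaled to the library total, with TMM factors) rests on at least about 19.4 reads. All 12 oocyte marker genes examined were above the detection limit of 3 counts in each of the 9 libraries. Of 18 cumulus and granulosa markers, 5 to 15 were above that limit in a library, and their summed level lay between 268 and 386 CPM. Most of that sum was Bmpr1b, which oocytes also express. The cumulus genes Ptx3, Tnfaip6, Inha and Vcan were at 0 counts in GFP High 2 and were highest in GFP High 1, GFP Low 1 and RFP 2. Inhba followed them, but other markers of the list went a different way. Star had 42 counts in GFP High 2 and 51 in RFP 1, Cyp11a1 was highest in RFP 1 (85 counts) and Fshr in GFP Low 3 (57 counts). Of the blood markers only Ptprc was matched, at 0 to 10 counts. Of 3 oviduct epithelium markers, Ovgp1 had at most 2 counts, Epcam 0 to 50 and Krt8 78 to 240, and the 3 summed to between 3.30 and 10.7 CPM in a library.

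The 91 genes supplied between 0.529% and 0.705% of the counts of a library. Of these genes, 88 had a mean of at least 1 CPM over the 9 libraries, 54 at least 20 CPM and 7 at least 300 CPM. Their median level was 26.4 CPM, against 3.39 CPM for all protein-coding genes. Per length, the median was 17.1 FPKM (the authors' length-normalised values), which lies above 85.4% of protein-coding genes. In sum, complex I took 2288 ± 272 CPM in GFP High libraries, 2190 ± 119 in GFP Low ones and 2076 ± 183 in RFP ones (mean ± SD, n = 3 in each). Complex V took 2227 ± 223, 2153 ± 105 and 2084 ± 251 CPM and complex IV 1467 ± 226, 1364 ± 104 and 1260 ± 190 CPM, in the same order. The smaller complex III summed to 313 ± 27.0, 301 ± 21.1 and 259 ± 43.7 CPM and complex II to 279 ± 50.6, 273 ± 5.35 and 267 ± 9.78 CPM. The ranges of the 3 groups overlapped in each complex.

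**Figure D1:**
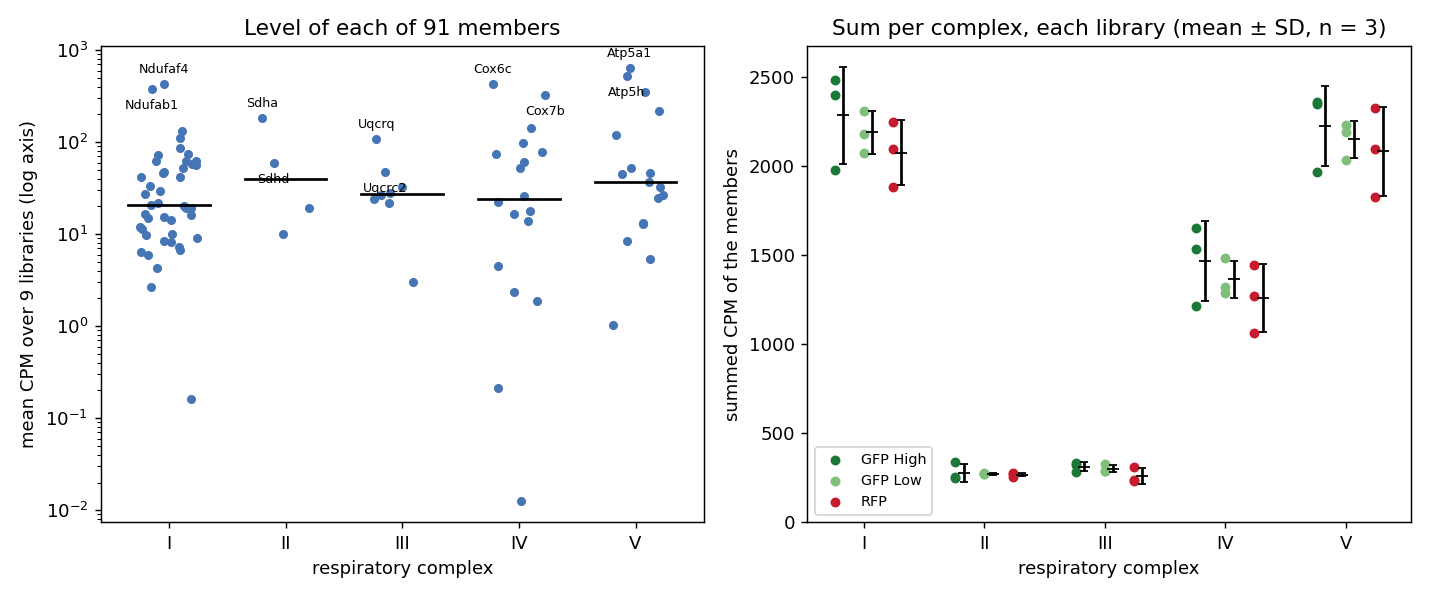
Left, the mean CPM over 9 libraries (log axis) of each of 91 genes by complex, with the median as a bar and the top 2 genes of each complex named. Right, the summed CPM of each complex in each library as points, with mean ± SD (n = 3) per group; complexes I and V are the largest sums, and the groups overlap in each complex.

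In complex I the most abundant member by count was Ndufaf4, an assembly factor that is absent from the finished enzyme. GFP High libraries 1 to 3 held 419, 433 and 426 CPM, GFP Low libraries 406, 438 and 460, and RFP libraries 432, 442 and 375. The groups overlapped, and its coefficient of variation over the 9 libraries was 5.67%. Ndufab1, the mitochondrial acyl carrier protein that is also a complex I subunit, followed with a mean of 380 CPM, and the accessory subunit Ndufa10 with 132 CPM. Per length the order was Ndufaf4 at 108 ± 6.41 FPKM, Ndufs5 at 86.5 ± 14.1 and Ndufc2 at 82.6 ± 9.83 (SD over the 9 libraries of all groups). The deposited gene length of Ndufab1 is the union of all its annotated exons, which lowers its FPKM to 54.7. The order depended on the length used. Divided by the shortest principal transcript (the main annotated model of the gene), Ndufab1 led at 269 CPM per kb, before Ndufs5 at 143 and Ndufaf4 at 117, whereas with the longest they stood at 109, 110.5 and 117 CPM per kb.

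The nuclear core subunits, which include those that carry the flavin and iron-sulphur centres, differed widely in level. Among those described here, Ndufv2 stood at 28.5 ± 6.71, Ndufv1 at 20.4 ± 6.56 and Ndufs7 at 11.7 ± 3.17 FPKM. Ndufs3 (9.99 FPKM) and Ndufs8 (9.42 FPKM) were lower, and Ndufs1, the largest core subunit, stood at 1.75 ± 0.430 FPKM. The deposited length of Ndufs1 is 8086 bases, against 2590 and 2661 for its shortest and longest principal transcripts, which lowers its FPKM. Ndufs1 overlaps Eef1b2, a translation factor gene at 112 CPM, on the opposite strand, and whether the counting used strand is not stated in the sources used here. Across complex I as a whole 43 of 44 genes were above 3 counts in every library. The exception was Ndufaf1, an assembly factor at 0 counts in 5 libraries and at most 0.722 CPM in the others.

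All 4 genes of complex II were read in every library. Sdha, the flavoprotein that oxidises succinate, had 154, 246 and 164 CPM in the GFP High libraries, 187, 178 and 190 in those of GFP Low, and 168, 180 and 190 in those of RFP. GFP High 2 was the highest library and GFP High 1 the lowest. Per length, Sdhd, a membrane anchor, reached 47.8 ± 3.49 FPKM and Sdha 44.2 ± 6.45 FPKM, but per kb of principal transcript Sdha, at 63.5 CPM, was above Sdhd, at 48.3 CPM. The other anchor, Sdhc, stood at 5.87 ± 0.809 and the iron-sulphur subunit Sdhb at 4.49 ± 0.603 FPKM, and per kb of principal transcript this pair turned too, at 6.08 and 8.88 CPM. On both scales Sdha and Sdhd were above Sdhb and Sdhc.

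In complex III the small subunit Uqcrq led with a mean of 107 CPM and 58.1 ± 15.1 FPKM. Uqcr10 (47.6 FPKM), Uqcr11 (40.8 FPKM), Uqcrb (26.9 ± 12.9 FPKM) and the hinge protein Uqcrh (26.3 FPKM), all small subunits, came next. Per kb of either principal transcript Uqcrh, at 60.2 CPM, was above Uqcr11, at 59.4, and Uqcrb, at 44.5. The core proteins were lower and unequal, with Uqcrc2 at 18.3 ± 2.87 FPKM and Uqcrc1 at 0.716 ± 0.432 FPKM. Uqcrc1 had 0 counts in GFP High 2 and at most 5.88 CPM elsewhere. The Rieske iron-sulphur protein Uqcrfs1 stood at 15.8 ± 3.83 FPKM.

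The remaining accessory subunits of complex I covered a wide range of levels by count. Ndufs4, whose loss is known from Leigh syndrome, had a mean of 110 CPM, Ndufb11 73.1 CPM and Ndufb10 56.4 CPM, whereas Ndufs6 had 6.37, Ndufb2 6.74 and Ndufa7 8.29 CPM. The lowest that could be tested was Ndufa3, with a mean of 2.69 CPM. Among the assembly factors, Ndufaf8 (62.5 CPM) and Ndufaf2 (41.5 CPM) were well below Ndufaf4, and Ndufaf5, Ndufaf3 and Ndufaf6 lay between 5.88 and 10.1 CPM.

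In complex IV the ubiquitous subunits Cox6c (429 CPM), Cox7b (324 CPM) and Cox5b (142 CPM) were highest by count. By FPKM the order was Cox7b at 265 ± 33.9, Cox8a at 142 ± 17.2 and Cox6c at 119 ± 20.3. It turned when counts were divided by the shortest or the longest principal transcript, with Cox6c at 853, Cox7b at 324, Cox5b at 164 and Cox8a at 142 CPM per kb on both. In complex V the catalytic alpha subunit Atp5a1 led with 645 CPM and a coefficient of variation of 4.64%, before the peripheral stalk subunit Atp5h with 519 CPM and the small membrane subunit Atp5mpl with 349 CPM. By FPKM Atp5h came first at 351 ± 36.4, then Atp5mpl at 284 ± 56.9 and Atp5a1 at 204 ± 10.03. Atp5h was at 1069 and Atp5mpl at 954 CPM per kb of the shortest principal transcript, but Atp5h was at 831 per kb of the longest, below Atp5mpl, which has the same length on both. The other F1 subunits were lower: Atp5b, the beta subunit, at 28.0 ± 1.41, Atp5e (epsilon) at 25.9, Atp5c1 (gamma) at 16.7 and Atp5d (delta) at 4.34 FPKM. Per kb of either principal transcript Atp5e, at 109 CPM, was above Atp5b, at 62.5 CPM.

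The other Fo and stalk subunits of complex V also differed by count. Atp5j2 had a mean of 216 CPM, with 262, 263 and 210 CPM in the GFP High libraries, 203, 213 and 218 in those of GFP Low, and 206, 234 and 134 in those of RFP. RFP 3 was the lowest library and the groups overlapped. Atp5k (52.0 CPM), Atp5j (45.4), Atp5f1 (37.3), Atp5l (26.9) and Atp5o (13.3) followed. Atp5s, a coupling factor, was the lowest of the complex with a mean of 1.03 CPM, of which GFP High 2 held 3.74 and every other library at most 1.08.

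Several subunits have a ubiquitous and a tissue-restricted form, and the eggs held mainly the ubiquitous ones. Cox4i1 stood at 62.5 FPKM, and Cox4i2, the form known from lung and hypoxia, at 9.14% of it by FPKM, 4.77% by the shortest and 4.86% by the longest principal transcript. Cox6a1 stood at 106 FPKM, and Cox6a2, the heart and muscle form, at 3.24% of it. Cox8a stood at 142 FPKM and Cox8c, known from testis, at 0.321% of it, with 0 counts in each GFP High library. In each of these pairs the ubiquitous form was higher in 9 of 9 libraries. Cox7a1, the heart and muscle form, was counted in GFP Low 2 only, against 14.5 FPKM for Cox7a2. Cox7a2l, a supercomplex assembly factor, was above Cox7a2 in 9 of 9 libraries, at 310% of its FPKM. Ndufa4l2, a hypoxia-inducible relative of Ndufa4, stood at 10.5% of Ndufa4 by FPKM, 4.04% by the shortest and 5.45% by the longest principal transcript, and overlaps Shmt2 on the opposite strand.

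Cox6b2, a form known from testis, was the exception, since it reached 58.1% of the FPKM of Cox6b1. Cox6b1 had 30.2, 24.9 and 16.0 CPM in the GFP High libraries, 13.7, 12.3 and 18.3 in those of GFP Low, and 12.7, 16.8 and 17.2 in those of RFP. Cox6b2 stood at 13.3, 20.2 and 17.7, at 19.7, 18.5 and 12.4 and at 17.4, 14.9 and 13.4 CPM in the same libraries. The levels of this pair were close, and their order per length turned on the length used. By FPKM Cox6b1 was higher in 9 of 9 libraries, but divided by the shortest principal transcript Cox6b2 was at 121% of Cox6b1, and divided by the longest at 96.2%. The c-ring genes Atp5g1, Atp5g2 and Atp5g3, which encode the same mature protein, stood at 4.93, 7.64 and 2.42 FPKM. Their order also moved: Atp5g2 was at 155% of Atp5g1 by FPKM, at 71.4% by the shortest and at 341% by the longest principal transcript. Atp5g3 was at 49.1%, 18.2% and 144% of Atp5g1 on these 3 scales, and it was below Atp5g2 on each of them. Atp5g1 and Atp5g2 have near-identical pseudogenes, given below, so their levels are uncertain. The orders within the other paralogue sets did not turn with the transcript chosen.

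**Figure D2:**
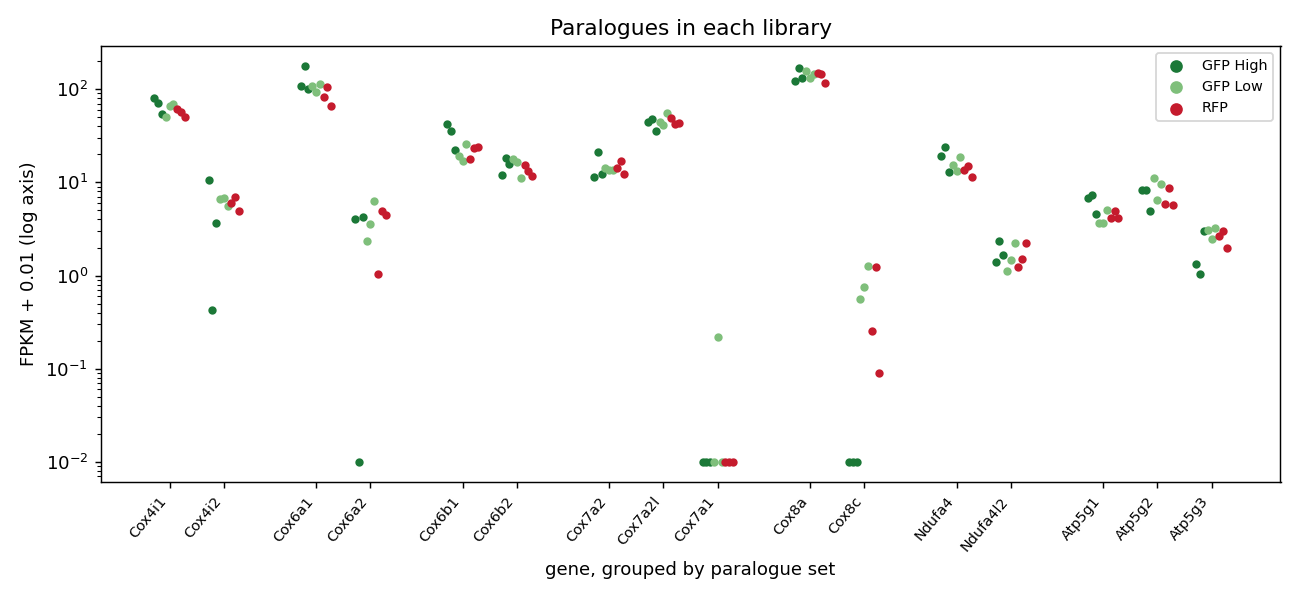
FPKM plus 0.01 (log axis) of each gene of 7 paralogue sets in each of 9 libraries, coloured by group. The ubiquitous Cox4i1, Cox6a1 and Cox8a lie above their tissue-restricted forms in 9 of 9 libraries, whereas Cox6b1 and Cox6b2 lie close together.

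The start regions of a pair that differed sharply and of the pair that did not are shown, with every CpG in capitals. They run from 200 bases before to 30 bases after the RefSeq start on GRCm38.p6, at chr9:79759824-79760053 (minus strand) for Cox7a2, chr7:30183971-30184200 (plus) for Cox7a1, chr7:30626085-30626314 (minus) for Cox6b1 and chr7:4753065-4753294 (minus) for Cox6b2.
Cox7a2: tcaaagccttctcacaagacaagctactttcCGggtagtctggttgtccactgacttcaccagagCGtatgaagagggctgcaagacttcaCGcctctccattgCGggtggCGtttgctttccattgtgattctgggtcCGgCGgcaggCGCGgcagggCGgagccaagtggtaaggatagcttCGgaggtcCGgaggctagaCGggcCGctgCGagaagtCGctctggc
Cox7a1: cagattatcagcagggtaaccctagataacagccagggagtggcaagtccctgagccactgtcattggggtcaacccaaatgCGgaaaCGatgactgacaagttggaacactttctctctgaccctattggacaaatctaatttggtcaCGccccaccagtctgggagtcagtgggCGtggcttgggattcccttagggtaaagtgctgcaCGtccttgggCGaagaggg
Cox6b1: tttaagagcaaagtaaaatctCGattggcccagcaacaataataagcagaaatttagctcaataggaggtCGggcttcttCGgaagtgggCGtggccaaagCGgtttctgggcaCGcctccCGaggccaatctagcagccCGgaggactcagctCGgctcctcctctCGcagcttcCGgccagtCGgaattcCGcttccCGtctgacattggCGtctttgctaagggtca
Cox6b2: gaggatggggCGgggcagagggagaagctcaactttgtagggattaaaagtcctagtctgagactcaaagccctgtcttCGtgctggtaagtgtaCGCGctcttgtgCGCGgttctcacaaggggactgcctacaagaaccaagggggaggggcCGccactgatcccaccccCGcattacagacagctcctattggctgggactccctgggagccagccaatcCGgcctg
These windows hold 16 CpG for Cox7a2 and 6 for Cox7a1, and 15 for Cox6b1 and 9 for Cox6b2. In both pairs the form known from muscle or testis had fewer.

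RefSeq promoters, from 250 bases before to 50 after the start, were matched for 74 of the 91 genes. The nuclear respiratory factor motif (NRF1, GCGCA, any base, then GCGC, read on both strands as were all motifs) was in 18 of them, 24.3%, against 7.76% of 14471 protein-coding promoters. The YY1 motif AANATGGC was likewise in 18, 24.3%, against 7.27%. The GABP motif CCGGAAGT was in 6.76% against 6.36%, and TATAAA in 6.76% against 10.7%. With start sites taken from the longest principal transcript, NRF1 was in 19 and YY1 in 17 of 74. The median CpG number was 19.5 for these genes and 17 for all. A match describes letters and not a bound site. Sequences are shown for a narrower window, from 200 bases before to 30 after the start. Among the matched genes, the most abundant holders of the NRF1 motif within it are Atp5h at chr11:115419890-115420119 (minus) and Ndufaf4 at chr4:24897883-24898112 (plus). For the YY1 motif it is Atp5b at chr10:128083107-128083336 (plus). The abundant genes Atp5a1, Cox6c and Atp5mpl had no matched promoter and were not searched. Cox7b and Atp5j2, which were more abundant than Atp5b, hold the YY1 motif in the wider promoter only. Capitals mark NRF1 in Atp5h and Ndufaf4, a GABP match further along in Atp5h, and YY1 in Atp5b.
Atp5h: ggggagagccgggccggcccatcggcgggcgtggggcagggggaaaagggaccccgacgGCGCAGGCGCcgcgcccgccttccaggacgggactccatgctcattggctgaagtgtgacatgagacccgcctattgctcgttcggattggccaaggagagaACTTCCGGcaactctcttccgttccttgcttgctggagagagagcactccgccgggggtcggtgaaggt
Ndufaf4: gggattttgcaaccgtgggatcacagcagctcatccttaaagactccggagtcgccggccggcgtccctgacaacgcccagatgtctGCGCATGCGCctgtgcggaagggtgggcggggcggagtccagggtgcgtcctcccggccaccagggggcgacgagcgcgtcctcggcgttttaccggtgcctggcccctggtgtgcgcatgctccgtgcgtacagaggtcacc
Atp5b: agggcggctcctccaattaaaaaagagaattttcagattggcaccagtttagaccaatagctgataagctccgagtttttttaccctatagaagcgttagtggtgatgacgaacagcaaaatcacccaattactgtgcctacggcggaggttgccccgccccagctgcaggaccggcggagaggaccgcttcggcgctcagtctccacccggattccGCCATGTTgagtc
All these motif counts are descriptions of sequence and were not set against expression.

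No gene of oxidative phosphorylation differed between GFP High and RFP at an adjusted p of 0.05. With edgeR's quasi-likelihood test, 0 of 88 tested genes were called, where 0.0135% of all 14829 genes tested were, and the lowest adjusted p of a member was 0.997. At an unadjusted p under 0.05 there were 10 of 88, against 4.09% of all genes, with 9 higher in GFP High (2.27% of all genes) and 1 lower (1.81%). The fitted change was positive for 67 of 88, where 49.3% of all genes had a positive one, and the median log2 fold change was 0.15, against -0.01 over all genes. The count of positive changes was 32 of 43 in complex I, 3 of 4 in complex II, 5 of 8 in complex III, 13 of 16 in complex IV and 14 of 17 in complex V. These shifts were small beside the replicate spread, and the median fell to 0.07 without RFP 3 and reached 0.28 without RFP 2. In the same fit 10 of 12 oocyte markers were positive, with a median log2 fold change of 0.12, and 2 of 12 tested cumulus and granulosa markers, with a median of -0.53. None of these markers was called, and their part in the result was not tested. In the authors' deposited table, likewise, no member lay under an adjusted p of 0.05, with a lowest value of 0.281, and 12 under an unadjusted p of 0.05.

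The smallest p in this comparison belonged to Uqcrq. The GFP High libraries held 116, 152 and 116 CPM and the RFP libraries 68.4, 103 and 91.5. All GFP High libraries lay above all RFP libraries. The log2 fold change was 0.55 (SE 0.17), with an unadjusted p of 0.00976 and an adjusted p of 0.997 in edgeR's test. Ndufa12, an accessory subunit of complex I, went the other way, at 2.08, 0.976 and 3.01 CPM in GFP High and 7.28, 5.13 and 4.53 in RFP. Its groups did not overlap either, with a log2 fold change of -1.48 (SE 0.54) and an adjusted p of 0.997 by edgeR. Its processed pseudogene Gm15920, 99.5% identical over 402 bases, stood at 3.51, 9.51 and 2.38 CPM in GFP High and 1.62, 2.41 and 2.00 in RFP, so reads of the pair may not be separable.

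Cox6a1 stood at 75.4, 125 and 71.2 CPM in GFP High and 58.0, 74.7 and 47.8 in RFP, which overlap, with a log2 fold change of 0.60 (SE 0.24). Uqcrfs1 stood at 22.7, 27.2 and 31.6 against 17.7, 19.4 and 21.1 CPM, without overlap, with a log2 fold change of 0.49 (SE 0.20). Atp5d stood at 10.4, 12.6 and 9.17 against 6.64, 6.27 and 7.09 CPM, also without overlap, with a log2 fold change of 0.69 (SE 0.28). None of these passed, with adjusted p-values of 0.997 by edgeR. In all, 7 of 88 members lay without overlap above RFP and 2 below, against 5.04% and 6.8% of all genes.

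**Figure D3:**
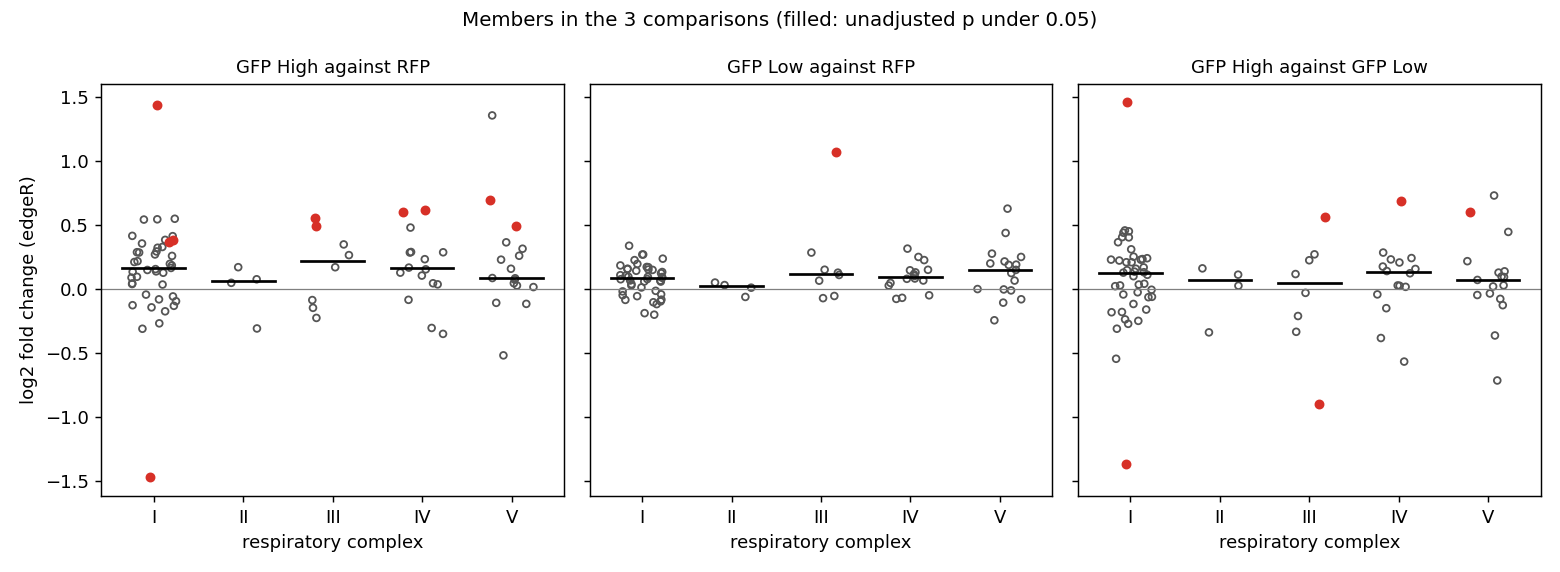
edgeR log2 fold change of the tested members by complex in the 3 comparisons, with the median of each complex as a bar; filled points have an unadjusted p under 0.05. No point passed an adjusted p of 0.05, and most changes lie within 0.5 of 0.

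GFP Low against RFP gave 0 of 88 members at an adjusted p of 0.05, where 0.0197% of 15199 genes were called, and the lowest adjusted p of a member was 1.00 by edgeR. At an unadjusted p under 0.05 there was 1 of 88, against 2.62% of all genes, and it was higher in GFP Low, as were 1.28% of all genes. The change was positive for 64 of 88 (48.9% of all genes), with a median log2 fold change of 0.09, against -0.00 over all genes. Without RFP 3 the change was positive for 43 of 89 and the median was -0.00. Without GFP Low 3 it was positive for 56 of 89, with a median of 0.04. Leaving out RFP 2 gave 74 of 89 and a median of 0.17, so the lean toward GFP Low moved with single libraries. Here 3 of 12 oocyte markers (median -0.06) and 3 of 12 tested cumulus and granulosa markers (median -0.53) were positive, with 0 called, and their part in the lean was not tested. Without RFP 2 the members at an unadjusted p under 0.05 numbered 16. By the authors' deposited table, no member passed and 2 had an unadjusted p under 0.05.

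The 1 member was Uqcrb, a small complex III subunit near the ubiquinone site. The GFP Low libraries held 45.2, 22.1 and 39.3 CPM and the RFP libraries 13.4, 22.2 and 15.1. GFP Low 1 and 3 were above every RFP library, but GFP Low 2 was level with RFP 2, so the groups overlapped. The log2 fold change was 1.07 (SE 0.25), with an unadjusted p of 0.000958 and an adjusted p of 1.00 in edgeR's test. With no filter on low counts, the adjusted p was 3.48e-08, and it ranged from there to 1.00 over the settings tried. GFP High held 26.7, 14.1 and 16.0 CPM of Uqcrb, and its coefficient of variation over all libraries, 48.1%, was the largest of the 81 members at 5 CPM or more. Uqcrb has a processed pseudogene, Gm5457, 97.6% identical over 333 bases, with a mean of 5.20 CPM in GFP Low and 5.59 in RFP. Some reads of this pair may not be separable. The next smallest p-values were those of Cox6a1 (log2 fold change 0.31, SE 0.15), Ndufs5 (0.27, SE 0.14), Atp5g2 (0.44, SE 0.23) and Atp5o (0.27, SE 0.17), each with an adjusted p of 1.00 by edgeR. Cox6a1 had 76.4, 66.9 and 80.6 CPM in the GFP Low libraries, which overlap those of RFP given above. Ndufs5 had 67.9, 76.2 and 88.9 CPM there, against 61.0, 76.7 and 56.4 for RFP, with overlap at RFP 2. Atp5o had 15.0, 12.7 and 15.2 CPM against 10.98, 12.5 and 12.1, and it is a stalk subunit whose GFP Low libraries all lay above RFP. In all, 3 of 88 members lay without overlap above RFP and 1 below, against 3.62% and 4.07% of all genes.

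GFP High against GFP Low gave 0 of 88 members at an adjusted p of 0.05, where 0.0% of 14785 genes were called, and the lowest adjusted p of a member was 0.998 by edgeR. At an unadjusted p under 0.05 there were 6 of 88, against 3.77% of all genes, with 4 higher in GFP High (1.85% of all genes) and 2 lower (1.92%). The change was positive for 58 of 88 (49.4% of all genes), with a median log2 fold change of 0.10, against -0.00 over all genes. It was positive for 47 of 88 without GFP High 1, with a median of 0.02, and for 47 of 88 without GFP High 2, with a median of 0.01. Of the oocyte markers 12 of 12 were positive (median 0.12), and of the tested cumulus and granulosa markers 4 of 11 (median -0.07), with 0 called, and their part was likewise not tested. This comparison shares its libraries with the other 2. By the authors' deposited table, no member passed, with a lowest adjusted p of 0.507, and 8 had an unadjusted p under 0.05.

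By p, Uqcrb came first with a log2 fold change of -0.90 (SE 0.31). Atp5g1 had 33.6, 36.3 and 22.7 CPM in the GFP High libraries and 17.9, 18.2 and 25.1 in those of GFP Low, which overlap, with a log2 fold change of 0.60 (SE 0.24). Ndufa3, a small complex I subunit, stood at 2.56, 6.95 and 4.45 against 1.34, 1.60 and 2.13 CPM, without overlap, with a log2 fold change of 1.46 (SE 0.58). It overlaps Tfpt, at 81.1 CPM, on the opposite strand. Cox6b1 (0.69, SE 0.27) and Ndufa12 (-1.37, SE 0.55) completed the 5, and all 5 had an adjusted p of 0.998 by edgeR. In all, 5 of 88 members lay without overlap above GFP Low and 2 below, against 4.79% and 6.7% of all genes. A test for any difference among the 3 groups called 0 of 88 members (0.0126% of 15857 genes called), and 8 had an unadjusted p under 0.05 (4.65% of all genes).

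The spread between replicates was wide for these genes. Among the 54 members at 20 CPM or more, the median coefficient of variation was 17.9% among GFP High libraries, 9.11% among GFP Low ones and 13.7% among RFP ones. For all protein-coding genes at that level it was 13.1%, 7.33% and 8.58%. Behind Uqcrb, the most variable members at 5 CPM or more were Ndufa11, an accessory complex I subunit (41.1%), Ndufs8 (38.2%), Atp5g3 (33.7%) and Cox6b1 (33.0%). For Ndufs8, GFP High 2 stood at 18.3 CPM and the other libraries between 6.97 and 9.09.

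Much of this spread was shared by many members within a library. Of 81 members at 5 CPM or more, 64 lay above their own mean in GFP High 1, 51 in GFP High 2 and 19 in GFP High 3. The numbers were 36, 39 and 57 for GFP Low libraries and 28, 56 and 12 for RFP ones. The libraries of a group thus went different ways, with RFP 3 and GFP High 3 low. The median deviation on the log2 scale was 0.17, 0.20 and -0.13 for GFP High libraries, -0.03, -0.01 and 0.08 for GFP Low ones and -0.11, 0.06 and -0.24 for RFP ones. In 171 other protein-coding genes with a deposited length under 1000 bases it was 0.16, 0.20 and -0.05, then -0.04, -0.05 and 0.09, then -0.03, 0.11 and -0.26. In the 781 genes of the next class above 1000 bases it was 0.06, 0.12 and 0.01 in GFP High libraries and -0.11 in RFP 3. In genes of 4000 bases or more it was -0.07 in GFP High 2 and 0.08 in RFP 3. The members are short by another measure, with a median principal transcript of 745 bases (861 when the longest is taken). By deposited length they lie in several classes, as Cox8a at 545, Atp5h at 1465 and Ndufab1 at 6883 bases. The classes are therefore not matched to the members in length. The part of transcript length in the differences between groups was not tested. GFP High 2, with 0 counts of 4 cumulus genes, had the highest summed level of the members, 7148 CPM. GFP High 1, GFP Low 1 and RFP 2, where these genes were highest, had 6874, 5991 and 6600 CPM. RFP 3 and GFP High 3, also with 0 counts of Ptx3 and Inha, had the lowest sums, 5287 and 5697 CPM. Tnfaip6 and Vcan had 0 and 7 counts in RFP 3, and 3 and 21 in GFP High 3. A link between these genes and the member sums was not tested.

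**Figure D4:**
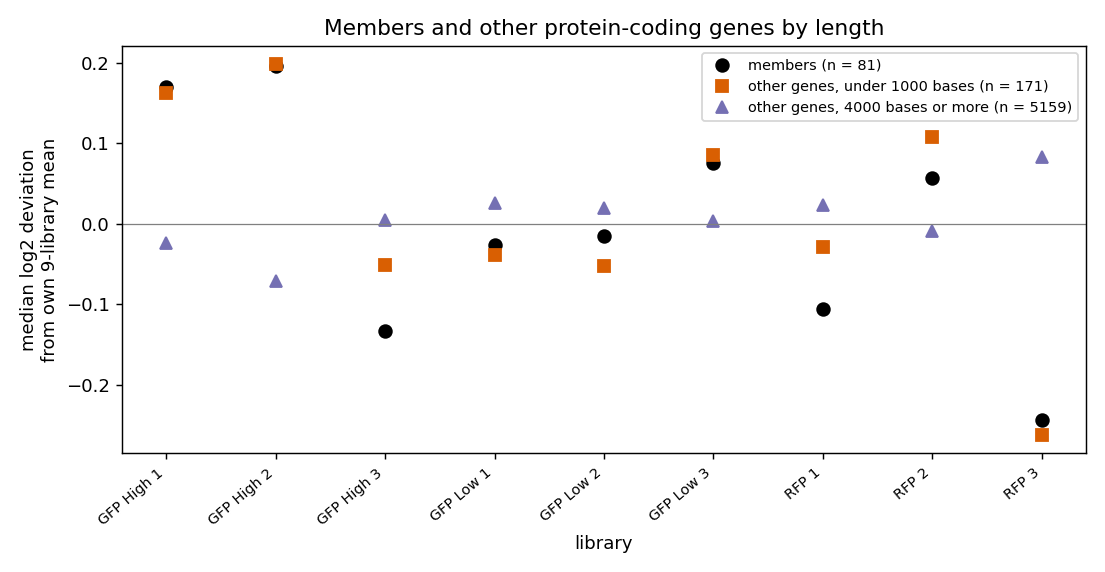
Median log2 deviation from each gene's own mean over 9 libraries, per library, for 81 members of any length. Other protein-coding genes are classed by deposited length, 171 under 1000 bases and 5159 of 4000 bases or more. Members and the genes under 1000 bases are both highest in GFP High 2 and lowest in RFP 3. They differ more elsewhere, as in GFP High 3 (-0.13 and -0.05). Long genes move less.

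Many of these genes have near-identical copies elsewhere in the genome, which limits how far their reads can be assigned. Of the 91, 21 had another gene in the tables at 95% identity or more over at least 100 bases. For Ndufb4, a complex I subunit on chromosome 16, the processed pseudogene Ndufb4c on chromosome 15 was identical over all of its 390 bases. Ndufb4 had 79.5, 69.9 and 49.8 CPM in the GFP High libraries, 57.5, 58.0 and 54.4 in those of GFP Low, and 47.4, 66.7 and 39.3 in those of RFP. Ndufb4c was higher in each library, and took between 60.2% and 70.0% of the reads of the pair. The first 120 bases of the shared stretch, from GENCODE M21, are printed to show that reads within it cannot be told apart.
Ndufb4 and Ndufb4c: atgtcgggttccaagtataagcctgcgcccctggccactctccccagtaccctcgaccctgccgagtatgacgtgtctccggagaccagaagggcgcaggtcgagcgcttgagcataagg
The level of Ndufb4 itself is therefore uncertain.

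Atp5h and its processed pseudogene Gm10250 on chromosome 15 were 98.97% identical over 485 bases. In the first 240 bases they differ by C69T, counted from 1 at the first base shown and marked by a capital.
Atp5h: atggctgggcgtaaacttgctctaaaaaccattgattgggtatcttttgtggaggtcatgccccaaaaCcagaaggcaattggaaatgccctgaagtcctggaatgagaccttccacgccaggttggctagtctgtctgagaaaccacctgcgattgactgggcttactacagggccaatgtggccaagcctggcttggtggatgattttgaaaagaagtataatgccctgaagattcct
Gm10250: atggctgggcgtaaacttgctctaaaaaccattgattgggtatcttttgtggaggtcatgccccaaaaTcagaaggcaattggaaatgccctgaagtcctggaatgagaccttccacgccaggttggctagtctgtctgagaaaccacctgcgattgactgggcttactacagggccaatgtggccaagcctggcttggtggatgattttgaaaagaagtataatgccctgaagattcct
Gm10250 had 62.9, 152 and 52.5 CPM in the GFP High libraries, 88.4, 59.8 and 24.5 in those of GFP Low, and 25.4, 37.1 and 29.0 in those of RFP, and was chosen here after its values were seen. All GFP High libraries lay above all RFP libraries, with a log2 fold change of 1.56, an unadjusted p of 0.00153 and an adjusted p of 0.997 by edgeR. Atp5h itself had a log2 fold change of 0.01 in the same comparison. The copy took between 4.27% and 23.7% of the reads of the pair.

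For Atp5g2 the pseudogenes Gm10231 and Gm10175 were identical over 441 or more bases and together took between 28.5% and 67.6% of the reads of the set. For Cox7c, a small complex IV subunit, Gm12338 was identical over 192 bases and took between 23.1% and 38.2%. In all, 30 members had 57 annotated pseudogenes, and the reads of these were added to the sum of the member's own complex. Complex I then rose from 2288 to 2432 CPM in GFP High, from 2190 to 2322 in GFP Low and from 2076 to 2190 in RFP. Complex V rose from 2227 to 2345, from 2153 to 2234 and from 2084 to 2136 CPM in the same order. The group means of both complexes thus lay further apart. The reads added to complex V include those of Gm10250, at 62.9, 152 and 52.5 CPM in the GFP High libraries. Separately from copies, 28 members overlap a gene on the opposite strand, among them Cox4i1, which overlaps Emc8, at 877 CPM.

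**Figure D5:**
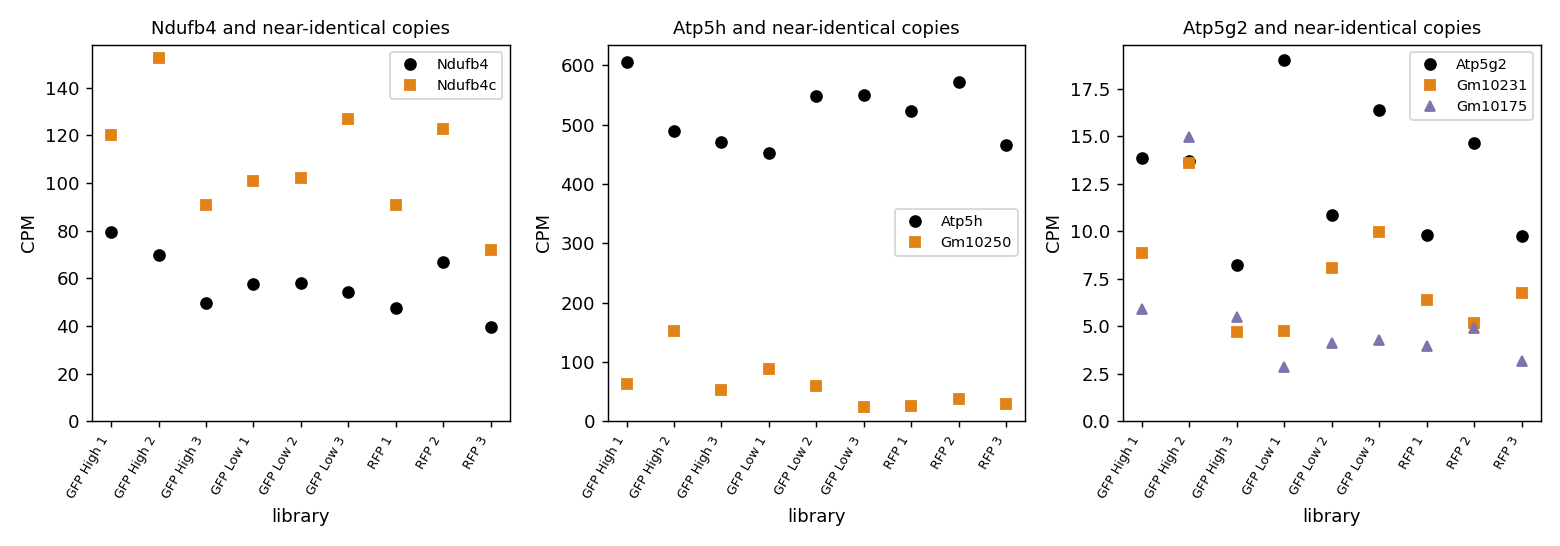
CPM per library of Ndufb4, Atp5h and Atp5g2 (circles) and of their near-identical pseudogenes (squares and triangles). Ndufb4c lies above Ndufb4 in each library, and Gm10250 lies highest in GFP High 2.

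The other genes of the pathway gave no calls. The carriers Cyc1 (cytochrome c1 of complex III) and Cycs (cytochrome c) were read in every library, with a mean of 5.64 and 167 CPM. In each of the 3 comparisons 0 of 10 tested complex I assembly genes passed, as did 0 of 4 for complex II and 0 of 6 for complex III. For ATP synthase 0 of 5 passed in each comparison. These 5 were assembly factors, the inhibitor Atpif1 and the further subunit Usmg5, which lies outside the complex V sums. For complex IV 26 assembly genes were matched, and 0 of 22 tested passed in GFP High against RFP and 0 of 23 in each of the other comparisons. Of all genes tested, 0.0135% were called between GFP High and RFP, 0.0197% between GFP Low and RFP, and 0.0% between the GFP groups. For complex I assembly genes 6 of 10 were fitted higher in GFP High than in RFP, with a median log2 fold change of 0.04, and for complex IV assembly genes 13 of 22, with a median of 0.01. The 13 mitochondrially encoded subunits summed to 5391 ± 475 CPM for GFP High, 5319 ± 472 for GFP Low and 5106 ± 520 for RFP (SD, n = 3 in each), and 0 of 13 passed. Poly-A selection reads these transcripts only as far as they carry a tail. A list of 9 transcription factors and cofactors of mitochondrial genes, nuclear or mitochondrial, included Nrf1, Gabpa, Yy1 and Tfam. Of these, 0 of 7, 0 of 8 and 0 of 6 tested passed in the 3 comparisons in that order. The list summed to 236 ± 36.4 CPM for GFP High, 248 ± 10.1 for GFP Low and 237 ± 16.5 for RFP.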

How the data were processed

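Poly-A RNA of 9 oocyte pools was measured by paired-end RNA-seq. Raw read counts per gene were deposited by the authors in 3 tables, 1 per pair of groups, and these counts were joined by gene identifier. The authors' FPKM values, which use a deposited gene length, served for levels per length. Columns of log2 fold change and of p-value were deposited by the authors too and are quoted only where their table is named. The submitters' processing notes name fastp, HISAT2 2.0.5, featureCounts 1.5.0-p3, DESeq2 1.20.0 and mm10, without a role for each. Strand use in counting is not given in the sources used here.

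Each pair was fitted on all genes of its 6 libraries with edgeR 4.0.16 under R 4.3.3 (filterByExpr, TMM, glmQLFit and glmQLFTest, no covariate), with Benjamini-Hochberg adjustment over all genes tested and a threshold of 0.05. DESeq2 1.42.0 and limma 3.58.1 served as alternatives. The scripts were tested on simulated data. CPM values were scaled by TMM. Deviations used log2(CPM + 0.5) of members at 5 CPM or more. Ndufaf1, Cox7a1 and Cox8c were too low to test in any comparison, and Cox7b2 and Cox8b found no match and are not analysed here. Reads carry no molecular identifiers, so counts near 3, the detection limit used, cover counting error only. Copies were sought with BLAST+ 2.17.0 among GENCODE M21 transcripts (GRCm38), requiring 95% identity, 100 bases and 20% of the member's transcript. The principal transcript was the shortest of the best tagged ones. The longest was added as an alternative after results with the shortest had been seen, because some short models lack untranslated ends, and both are reported. Levels per kb of either transcript were set beside the FPKM order after the data had been seen.

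Members and gene lists were chosen with earlier results of these data known. Genes were named by a fixed rule: the 5 smallest p per comparison, the 3 highest per complex by CPM and by FPKM, paralogue sets, succinate dehydrogenase, core subunits, members too low to test and the 5 most variable. Other accessory, stalk and assembly genes given by level, and members shown for their copies, lie outside it and were chosen after their values were seen. A result that this rule covers is not reported here. Alternatives covered scaling, filters, tests, the replicate block and leaving out each library. Correlations of same-numbered libraries between groups, taken on deviations from group means, ran from -0.106 to 0.120. Whether same-numbered pools shared an origin is not stated in the labels. These values cannot settle it, since each deviation rests on 3 libraries.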

Additional observations from a re-analysis of the deposited data

How the results depend on the processing

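The absence of calls among the members held under 57 alternatives, and the 2 exceptions came from dropping the filter on low counts. Without that filter, 1 member passed in GFP Low against RFP (Uqcrb, log2 fold change 1.06, adjusted p 3.48e-08 by edgeR) and 2 in the test among 3 groups (Uqcrb and Uqcrq), and the cause was not tested. Leaving out each library in turn gave 0 members called at the lowest and 0 at the highest in every comparison. With the replicate number as a block, 0 members passed in each comparison, as without it, and the block moved the members at an unadjusted p under 0.05 among the 3 groups from 8 to 4. Bias-adjusted deviances in edgeR, added after seeing the data, gave 0 members called in each comparison. The fitted changes of the members named by p kept their direction under the alternatives run. Those unadjusted counts were unstable, from 1 to 18 in GFP High against RFP when a library was left out. Without assembly factors and untested members the sum of complex I was 1704, 1609 and 1519 CPM in GFP High, GFP Low and RFP. Pools of 15 or 16 oocytes in GFP High and 3 libraries a group limit what could be called, and a call missed here does not show that levels were equal.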
